A study of Mus musculus with 13 samples.

Results

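The 10 genes described here encode the hypoxia-inducible transcription factors and the enzymes that sense oxygen for them, measured in whole brains of mouse embryos with and without Meg3. The genes are Hif1a, Epas1, Hif3a, Arnt, Arnt2, Egln1, Egln2, Egln3, Vhl and Hif1an. Every probe set annotated to 1 of these symbols was taken, which gave 30 of the 45037 non-control probe sets of the array and 10 of its 18193 named genes. The genes held 1 to 6 probe sets each, and each probe set was read on its own. Of the 30 probe sets, 23 lay above the filter on low signal and were tested, and the other 7 are given by their level alone.

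RNA from brains of embryonic day 18.5 (E18.5) embryos was hybridised to Affymetrix arrays, 6 wild-type and 7 Meg3 knock-out, with embryos as biological replicates. Meg3 is a maternally expressed long noncoding RNA, and the series title concerns angiogenic genes in its absence. The leading number of each embryo label was read as its litter. Knock-out 1 came from litter 148, wild-type 1 and 2 with knock-out 2 from litter 219, and wild-type 3 with knock-out 3 and 4 from litter 238. Wild-type 4 and 5 with knock-out 5 and 6 came from litter 250, and wild-type 6 with knock-out 7 from litter 262. The sources used here do not give the strain, the sex of the embryos, the deleted part of Meg3 or the parental origin of the deletion. Whole brain mixes neurons, glia, vessels and blood, so that fewer cells of a type and less RNA per cell cannot be told apart in any level below.

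HIF is a dimer of an oxygen-regulated alpha subunit (Hif1a, Epas1 or Hif3a) and a stable beta subunit (Arnt, or Arnt2 in neurons). When oxygen is present, the prolyl hydroxylases Egln1, Egln2 and Egln3 mark the alpha subunit, the ubiquitin ligase subunit Vhl binds the mark, and the protein is destroyed, while Hif1an hydroxylates an asparagine that blocks co-activator binding. Most of this control acts on protein, which these arrays did not measure. In the brain Epas1 is best known from endothelial and other vascular cells, and Egln3 is a classic target gene of HIF itself.

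The Meg3 signal checked the genotype labels. Its probe set 1439380_x_at read 3109, 5321 and 6251 (lowest, median and highest) in wild-type brains and 264, 347 and 589 in knock-out brains, and the groups did not overlap. Its log2 change, knock-out minus wild-type on the log2(signal + 16) scale used throughout, was -3.64 ± 0.20 (SE; limma adjusted p = 1.25e-07). The 8 neuron markers summed to signals of 70043 to 90933 per array and each had a mean of at least 3430. The ratio of the 3' to the 5' probe set of Actb, a reading of RNA integrity, was 2.92 in wild-type 2 and 1.81 in knock-out 1 against 1.32 to 1.495 in the other 11 arrays, and changes of the 8 probe sets that were lowest in both of them are given without them below.

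No member passed the test between genotypes. With limma, 0 of 23 passed an adjusted p of 0.05, against 0.0629% of all 27022 probe sets tested, and the smallest adjusted p of the 23 was 1.00. At an unadjusted p under 0.05 the count was also 0 of 23, where 3.76% of all probe sets were higher and 0.204% lower in knock-out brains. The groups did not separate for any of the 23 probe sets, against 0.133% of all. Knock-out means were higher for 15 and lower for 8 (65.2% higher, against 72.5% of all), and the median log2 change was 0.04 beside 0.08 over all probe sets tested. That split turned with the scaling and with the arrays used. After centring each array on its median it was 5 higher and 18 lower, with a median of -0.07 beside -0.02 over all, after quantile normalisation 7 and 16, and after a common trimmed mean 9 and 14. It was 8 and 15 without wild-type 2 and also with the Actb ratio as a covariate. It was 7 and 16 without litter 219, and 19 and 4 with litter as a block. The share higher was 21.7% against 44.3% of all with median centring and 30.4% against 47.4% with quantile normalisation. With the common trimmed mean it was 39.1% against 57.5%, without litter 219 30.4% against 52%, and with litter as a block 82.6% against 72.3%. Over all probe sets 17044 were higher and 9978 lower without wild-type 2, and 17166 and 9856 with the Actb covariate. Over the probe set with the highest mean of each gene, 5 log2 changes were above and 5 below 0, from -0.07 to 0.12. Their 95% intervals lay within -0.48 to 0.50, that is within 0.715- to 1.41-fold. With median centring 1 of these changes was above and 9 were below 0, where 31.3% of all genes were above. No probe set of the 23 kept 1 sign in all 4 litters that held both genotypes.

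**Figure D1:**
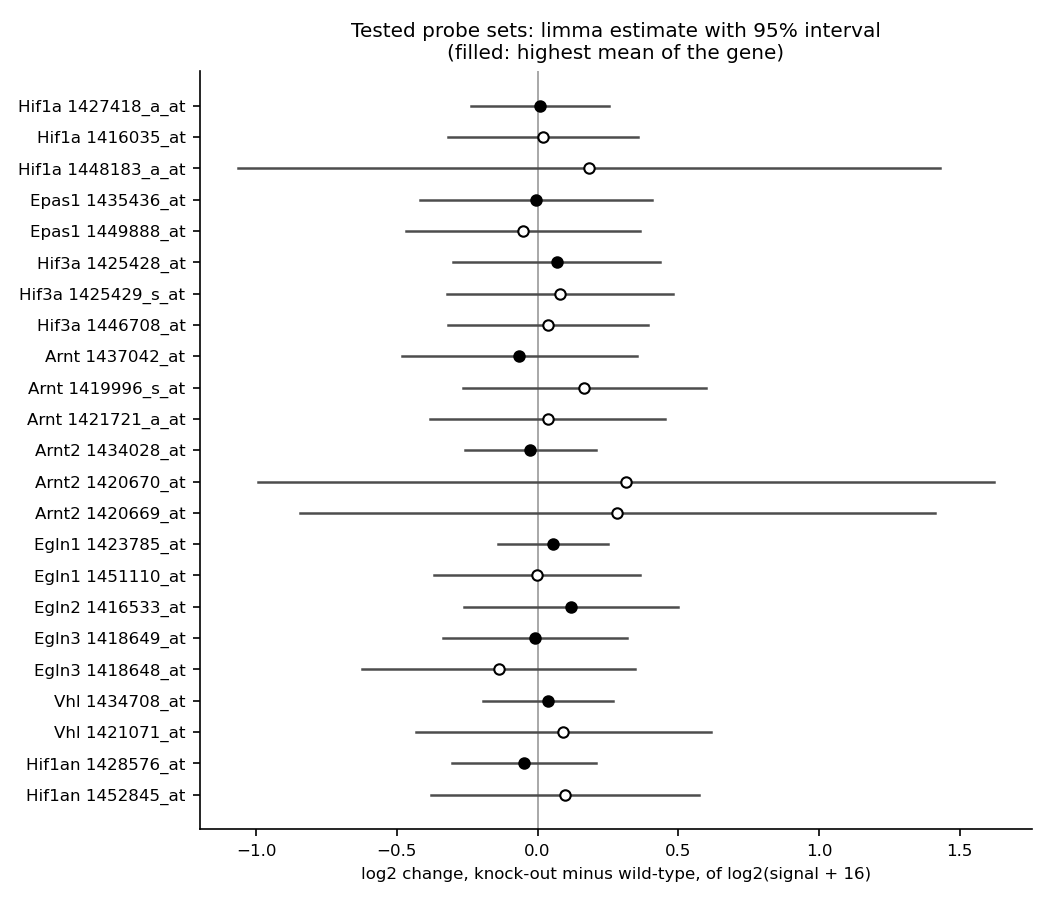
Log2 change of each tested probe set, knock-out minus wild-type of log2(signal + 16), with its 95% interval from limma. All 23 intervals include 0, and the widest belong to Arnt2 1420670_at (-0.99 to 1.62), Hif1a 1448183_a_at (-1.07 to 1.43) and Arnt2 1420669_at (-0.85 to 1.41).

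Among the alpha subunits, Hif1a, the broadly expressed subunit, was read by 4 probe sets. Its 1427418_a_at signal was 3047, 4158 and 4891 (lowest, median and highest) in wild-type brains and 3659, 3946 and 4660 in knock-out brains. Wild-type 1 was the lowest and wild-type 2 the highest of all 13 arrays, so the wild-type brains enclosed every knock-out brain. That rested on wild-type 2, the array with the highest Actb ratio. The next wild-type brain read 4302, below knock-out 2 (4660) and knock-out 5 (4487). The means were 4099 ± 598 (SD, n = 6) and 4096 ± 363 (SD, n = 7), and the log2 change was 0.01 ± 0.11 (SE; 95% interval -0.24 to 0.25; limma adjusted p = 1.00). A second probe set, 1416035_at, read 726, 1211 and 1480 against 919, 1164 and 1275, again with wild-type 1 lowest and wild-type 2 highest, and changed by 0.02 ± 0.16 (SE). Without wild-type 2 and knock-out 1 the log2 change was 0.09 for 1427418_a_at and 0.12 for 1416035_at. These 2 probe sets varied together over the 13 arrays (r = 0.825 of the deviations from the genotype means, a description of arrays that share RNA and scaling).

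The third Hif1a probe set, 1448183_a_at, gave another pattern over the arrays. It read 170, 120, 149, 309, 257 and 832 in wild-type 1 to 6 and 32.9, 549, 385, 371, 210 and 216 in knock-out 1 to 6, with 862 in knock-out 7. Both high values belong to litter 262 and the lowest to knock-out 1, and the 2 groups overlapped over nearly their whole range. Its log2 change of 0.18 ± 0.58 (SE) spans an interval of -1.07 to 1.43, and it moved from -0.33 without litter 219 to 0.62 without knock-out 1 and was 0.43 without knock-out 1 and wild-type 2. Its correlation with the 2 other probe sets over the 13 arrays was 0.18 and -0.11. The fourth, 1431981_at, stayed below the filter at 4.54 to 55.8 over all arrays.

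Epas1, which encodes HIF-2 alpha, was low in 1 litter. Its 1435436_at signal was 1733, 1389, 1631, 1391, 1373 and 836.1 in wild-type 1 to 6. In knock-out 1 to 7 it was 1295, 1608, 1506, 1280, 1640.0, 1574 and 798. Wild-type 6 and knock-out 7, the 2 embryos of litter 262, stood apart below all other arrays, whereas the other 11 spanned 1280 to 1733 with the genotypes intermixed. The log2 change was -0.01 ± 0.19 (SE; 95% interval -0.42 to 0.41; limma adjusted p = 1.00), and within litters the knock-out minus wild-type difference was 0.05 in 219, -0.23 in 238, 0.21 in 250 and -0.07 in 262. The second probe set, 1449888_at, read 53.5, 116 and 153 (lowest, median and highest) in wild-type and 73.6, 115 and 124 in knock-out brains, with a log2 change of -0.05 ± 0.19 (SE), and of -0.15 without wild-type 2 and knock-out 1. In it litter 262 did not stand apart (130 and 122), and the correlation of the 2 probe sets was -0.06 over 13 arrays and 0.51 over the 11 outside litter 262.

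Hif3a, whose products can act as inhibitors of the other alpha subunits, had 6 probe sets, of which 3 were tested. The strongest, 1425428_at, read 334, 518 and 641 in wild-type and 376, 530 and 744 in knock-out brains. The 2 lowest arrays were again those of litter 262, and the highest was knock-out 1. Its log2 change was 0.07 ± 0.17 (SE; 95% interval -0.30 to 0.43). The other tested probe sets, 1425429_s_at (45.5 to 108 in wild-type, 58.2 to 111 in knock-out brains) and 1446708_at (55.0 to 86.8 and 39.8 to 98.0), changed by 0.08 ± 0.19 and 0.04 ± 0.17 (SE). The 3 below the filter, 1459052_at, 1447061_at and 1421572_at, ranged over 31.8 to 64.6, 0.921 to 52.7 and 1.51 to 6.30.

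**Figure D2:**
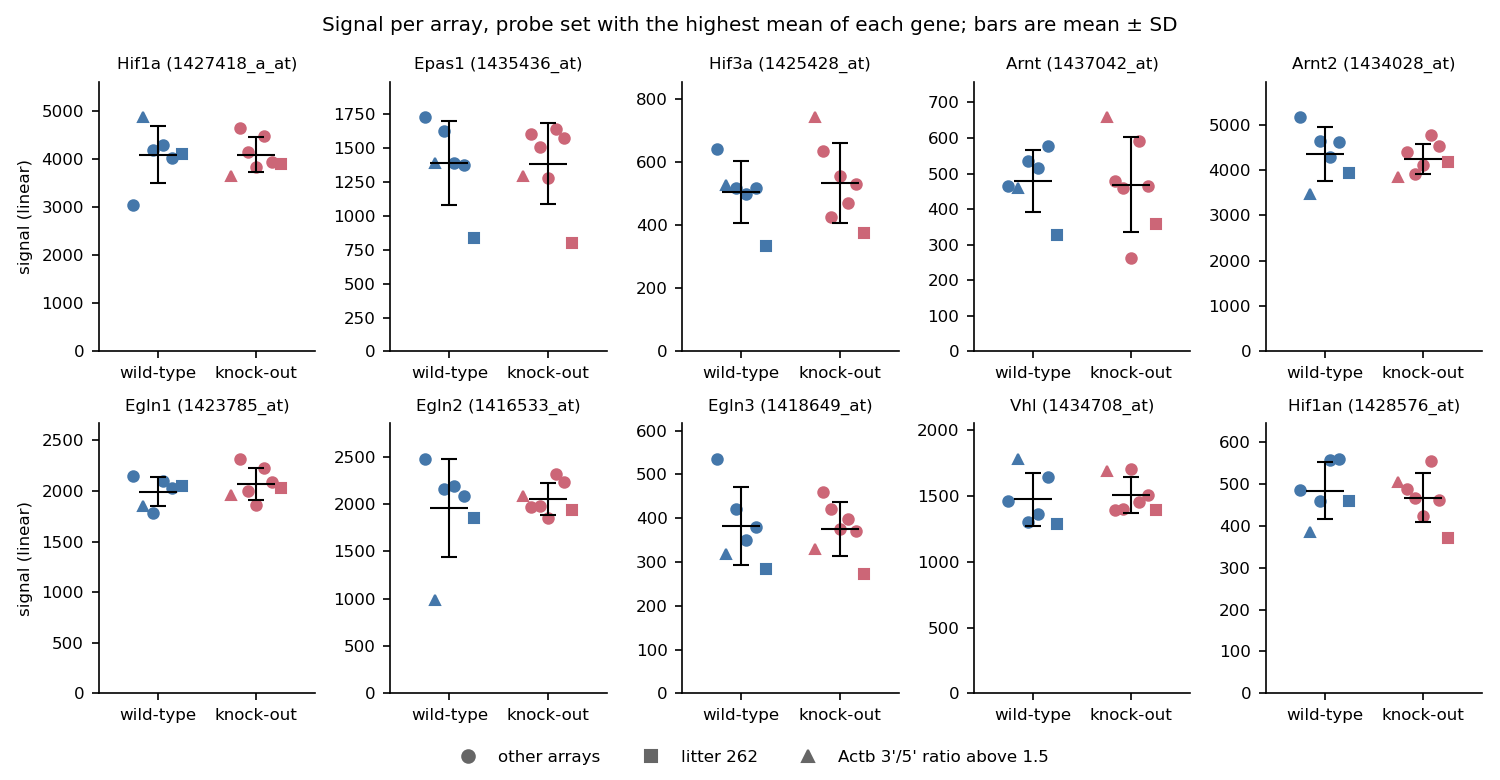
Linear signal of every array for the probe set with the highest mean of each gene, by genotype, with bars for mean ± SD (6 wild-type, 7 knock-out brains). Squares mark litter 262, which holds the lowest Epas1 signals of 836.1 and 798, and triangles mark the arrays with a high Actb ratio, of which wild-type 2 has the low Egln2 signal of 992.

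For the beta subunits, Arnt, the general partner of the alpha subunits and of other bHLH-PAS proteins, had 5 probe sets. In 1437042_at the wild-type brains read 327, 491 and 576 and the knock-out brains 263, 466.3 and 660. Knock-out 4 was the lowest and knock-out 1 the highest array, so the knock-out brains enclosed the wild-type ones. The log2 change was -0.07 ± 0.20 (SE; 95% interval -0.48 to 0.35). A second probe set, 1419996_s_at, read 196, 227 and 328 against 150, 273 and 440, with the same 2 knock-out brains at the ends, and its log2 change of 0.17 ± 0.20 (SE) was nearest of the 23 to the threshold in limma (0.425 before and 1.00 after adjustment). Without knock-out 1 and wild-type 2 that change was 0.00. The third, 1421721_a_at, read 86.9, 145 and 218 against 103, 143 and 219, with a log2 change of 0.04 ± 0.19 (SE), or -0.02 without the same 2 arrays, and correlated with 1437042_at at -0.45. The 2 below the filter, 1425064_at and 1449696_at, read 18.9 to 74.2 and 4.17 to 67.5.

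Arnt2, the beta subunit of neurons, read 3468, 4449 and 5173 in wild-type and 3848, 4174 and 4767 in knock-out brains in 1434028_at. Wild-type 1 was highest and wild-type 2 lowest, and every knock-out value lay between them. The next lowest wild-type brain read 3924, above knock-out 1 (3848) and knock-out 3 (3907). The log2 change was -0.03 ± 0.11 (SE; 95% interval -0.26 to 0.21), and it was -0.07 without wild-type 2 and knock-out 1. Its 2 other probe sets varied far more: 1420670_at ran from 25.1 in wild-type 2 and 47.6 in knock-out 1 to 626 in knock-out 7, and 1420669_at from 23.9 in wild-type 2 to 563 in wild-type 6. Those 2 correlated with each other at 0.89 over the arrays and with 1434028_at at 0.52 and 0.29, which became -0.55 and -0.47 without wild-type 2 and knock-out 1. Their log2 changes were 0.32 ± 0.61 and 0.28 ± 0.53 (SE). Without wild-type 2 and knock-out 1 the first was 0.17 and the second 0.08, with adjusted p at 1.00 in the limma fit of all arrays.

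**Figure D3:**
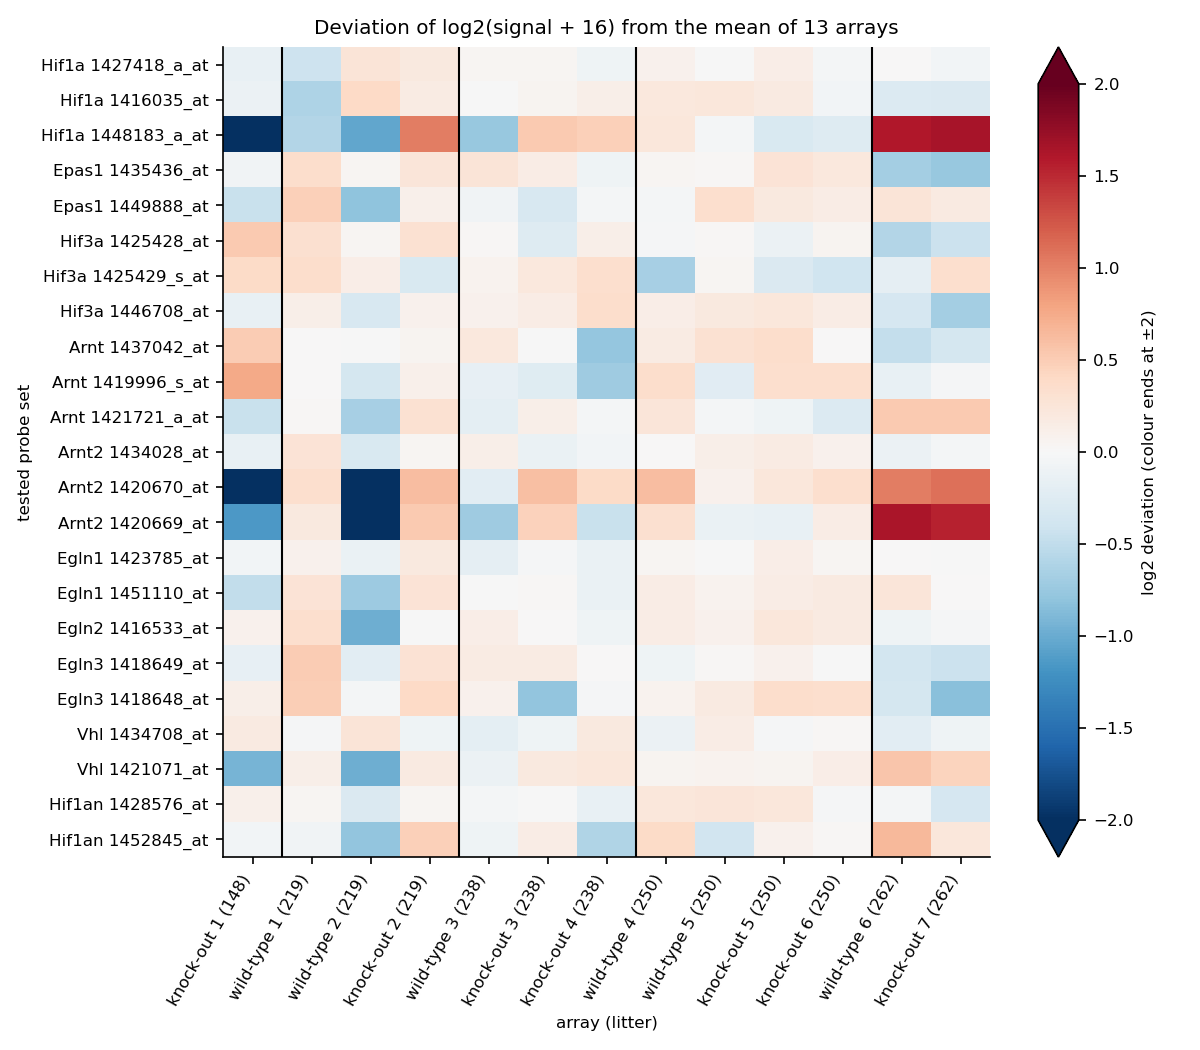
Deviation of each tested probe set from its mean over the 13 arrays, on the log2(signal + 16) scale, with arrays in columns ordered by litter. Arnt2 1420670_at is far below its mean in wild-type 2 (signal 25.1) and knock-out 1 (47.6), and Epas1 1435436_at is lowest in the 2 arrays of litter 262.

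Among the prolyl hydroxylases, Egln1 (PHD2), the main oxygen sensor, had the most precise values. In 1423785_at wild-type brains read 1785, 2038 and 2152 and knock-out brains 1858, 2027 and 2318. The groups overlapped over most of their range, with knock-out 2 highest and wild-type 3 lowest. The means were 1993 ± 144 (SD, n = 6) and 2071 ± 159 (SD, n = 7), and the log2 change was 0.05 ± 0.09 (SE; 95% interval -0.14 to 0.25, or 0.906- to 1.19-fold), with an exact two-sided permutation p of 0.386, the smallest among the members. In 1451110_at the wild-type brains read 376, 684 and 765 and the knock-out brains 443, 640 and 767, and the lowest 2 were wild-type 2 and knock-out 1. Its log2 change was -0.00 ± 0.17 (SE), and -0.06 without those 2 arrays.

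Egln2 (PHD1) had 1 probe set, 1416533_at, which read 992, 2123 and 2480 in wild-type and 1855, 1985 and 2318 in knock-out brains. Wild-type 2 was the single low array, and the other 5 wild-type brains, at 1851 to 2480, covered the whole knock-out range. The log2 change was 0.12 ± 0.18 (SE; 95% interval -0.26 to 0.50), and without wild-type 2 and knock-out 1 it was -0.07. Egln3 (PHD3) read 285, 364 and 536 in wild-type and 274, 375 and 460 in knock-out brains in 1418649_at. Knock-out 7 and wild-type 6 were the 2 lowest arrays and wild-type 1 the highest. Its log2 change was -0.01 ± 0.15 (SE; 95% interval -0.34 to 0.32). The second Egln3 probe set, 1418648_at, read 160, 222 and 301 against 110, 227 and 282, with knock-out 7 and knock-out 3 lowest, and changed by -0.14 ± 0.23 (SE).

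The promoters of these sensors are shown because some sensors are themselves HIF targets. HIF binds the core of the hypoxia response element, which is A or G followed by CGTG. Only the form ACGTG was searched. Windows from 250 bases before to 50 bases after each annotated start were taken from RefSeq (GRCm38.p6) and read on both strands. ACGTG was found in 4 of the 9 members with a window, namely Hif1a, Egln1, Egln2 and Egln3, while 21.8% of all genes and 19.6% of the 32851 windows held it. The form GCGTG was not counted. It is present in the Arnt and Hif3a windows, which hold no ACGTG, and also in the Egln1, Egln2 and printed Ldha windows. Capitals mark each match to ACGTG and leave GCGTG unmarked, and CACGTG carries overlapping matches on the 2 strands. Egln1 lies at chr8:124949205-124949504 and Egln3 at chr12:54203825-54204124, both on the minus strand, and Ldha, the glycolytic target gene described further below, at chr7:46845554-46845853 on the plus strand. A match is not a measured binding site.
Egln1: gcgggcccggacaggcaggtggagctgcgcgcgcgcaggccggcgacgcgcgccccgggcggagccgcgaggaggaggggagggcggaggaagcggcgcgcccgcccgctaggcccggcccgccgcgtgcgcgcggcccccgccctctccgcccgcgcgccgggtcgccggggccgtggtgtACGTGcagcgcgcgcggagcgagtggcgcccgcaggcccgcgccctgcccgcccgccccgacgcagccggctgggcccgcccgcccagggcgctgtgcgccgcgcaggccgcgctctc
Egln3: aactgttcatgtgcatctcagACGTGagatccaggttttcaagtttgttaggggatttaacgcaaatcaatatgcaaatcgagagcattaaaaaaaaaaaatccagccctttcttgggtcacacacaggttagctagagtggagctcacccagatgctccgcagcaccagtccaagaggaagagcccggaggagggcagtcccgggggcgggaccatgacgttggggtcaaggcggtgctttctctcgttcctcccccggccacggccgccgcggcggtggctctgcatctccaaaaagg
Ldha: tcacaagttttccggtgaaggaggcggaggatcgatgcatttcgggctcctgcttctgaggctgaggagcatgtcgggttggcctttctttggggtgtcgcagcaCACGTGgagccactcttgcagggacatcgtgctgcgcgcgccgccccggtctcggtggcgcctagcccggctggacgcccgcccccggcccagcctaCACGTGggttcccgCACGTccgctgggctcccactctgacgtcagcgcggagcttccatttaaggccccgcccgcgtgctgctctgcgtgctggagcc
In Egln1 the ACGTG match starts at position -68 and in Egln3 at -229 relative to the start site. The printed Ldha window held 5 matches counting both strands, with overlapping ones in CACGTG counted separately. A second Ldha window, at chr7:46846832-46847131, held 0. Counted in the same way, Hif1a held 3, and Egln2 held 3 in its first window and 0 in the other. Of the target genes Vegfa and Adm, described further below, Adm held 0, and Vegfa held 0 in its first window and 1 in the other.

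Vhl, which recognises hydroxylated alpha subunits, read 1286, 1412 and 1782 in wild-type and 1393, 1455 and 1700 in knock-out brains in 1434708_at. Wild-type 2 was the highest array and wild-type 6 the lowest, so again the wild-type range held all knock-out brains. The next wild-type brain after wild-type 2 read 1646, below the highest knock-out brain. The log2 change was 0.04 ± 0.11 (SE; 95% interval -0.19 to 0.27). The other probe set, 1421071_at, read 282, 596 and 846 against 291, 649 and 784, with wild-type 2 and knock-out 1 lowest and litter 262 highest in both genotypes. Its log2 change was 0.09 ± 0.25 (SE), or 0.07 without wild-type 2 and knock-out 1, and it ran opposite to 1434708_at over the arrays, at a correlation of -0.68 that was -0.24 without wild-type 2 and knock-out 1.

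Hif1an (FIH), the asparaginyl hydroxylase, read 384, 472.5 and 560 in wild-type and 370, 467 and 556 in knock-out brains in 1428576_at. Those ranges nearly coincide, with knock-out 7 and wild-type 2 lowest. Its log2 change was -0.05 ± 0.12 (SE; 95% interval -0.30 to 0.21). The weaker 1452845_at read 34.8 to 122 in wild-type and 42.0 to 106 in knock-out brains and changed by 0.10 ± 0.22 (SE), and 1447817_at stayed below the filter at 8.53 to 66.3.

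Litter 262 was singled out after the values were seen. Both of its embryos lay below the other 11 for 4 of the 23 probe sets (17.4%, against 6.94% of all probe sets tested), namely Epas1 1435436_at, Egln3 1418649_at and Hif3a 1425428_at and 1446708_at. They lay above the other 11 for 5 of 23 (21.7%, against 10.1% of all), namely Hif1a 1448183_a_at, Arnt2 1420669_at and 1420670_at, Arnt 1421721_a_at and Vhl 1421071_at. All 5 were also among the probe sets that were lowest in wild-type 2 and knock-out 1, the arrays with a high Actb ratio. So these 4 probe sets of Epas1, Egln3 and Hif3a were low in the same 2 brains, 1 of each genotype, in which the other group of probe sets was high. The other tested probe sets of the same genes, Epas1 1449888_at, Egln3 1418648_at and Hif3a 1425429_s_at, did not have both embryos below the rest. A litter term beside genotype passed the adjusted threshold for 0 of 23 probe sets, against 0.0407% of all. The smallest limma adjusted p for litter were 0.079 for Hif1a 1448183_a_at, 0.091 for Epas1 1435436_at and 0.114 for Hif3a 1425428_at, with unadjusted p of 0.000898, 0.00217 and 0.00581. The term covers all litters, and litter 148 holds only knock-out 1, an array with a high Actb ratio. That array has the lowest Hif1a 1448183_a_at signal (32.9), and its litter and its RNA integrity cannot be told apart.

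Of 7 lists of cell type markers, 4 stood apart in litter 262. The 11 tested endothelial markers summed to 5194 in wild-type 6 and 5149 in knock-out 7 against 5775 to 7781 in the other arrays, and the 8 pericyte markers to 5752 and 5780 against 6297 to 8835. The 6 microglia markers summed to 2181 and 2225 against 2552 to 3941, whereas the 8 neuron markers were highest there, at 90617 and 90933 against 70043 to 82028. The sums of the 8 astrocyte and radial glia markers (39908 and 34925 against 33428 to 42061) and the 7 choroid plexus markers (32924 and 18892 against 9090 to 38480.5) lay within the range of the other arrays in both embryos, and the 3 red cell markers were lowest in wild-type 6 (263) but not in knock-out 7 (427, against 376 to 1794). Between genotypes the choroid plexus markers had lower knock-out means for 6 of 7 (median log2 change -0.41), with 0 past the adjusted threshold and 0 at an unadjusted p under 0.05 in limma. At that p 2 of 7 were lower with median centring, quantile normalisation or the common trimmed mean (against 184, 302 and 116 of all 12920 genes). The count was also 2 without wild-type 5, wild-type 6 or knock-out 5 (against 29, 82 and 57 of all genes). Without knock-out 4, which had the lowest sum (9090), the median was -0.24 and the count 0. Markers below the signal filter, such as Ly6c1 of the endothelial list, are in no sum. The part of these cells in the Epas1, Egln3 and Hif3a probe sets that were low in litter 262 was not tested.

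**Figure D4:**
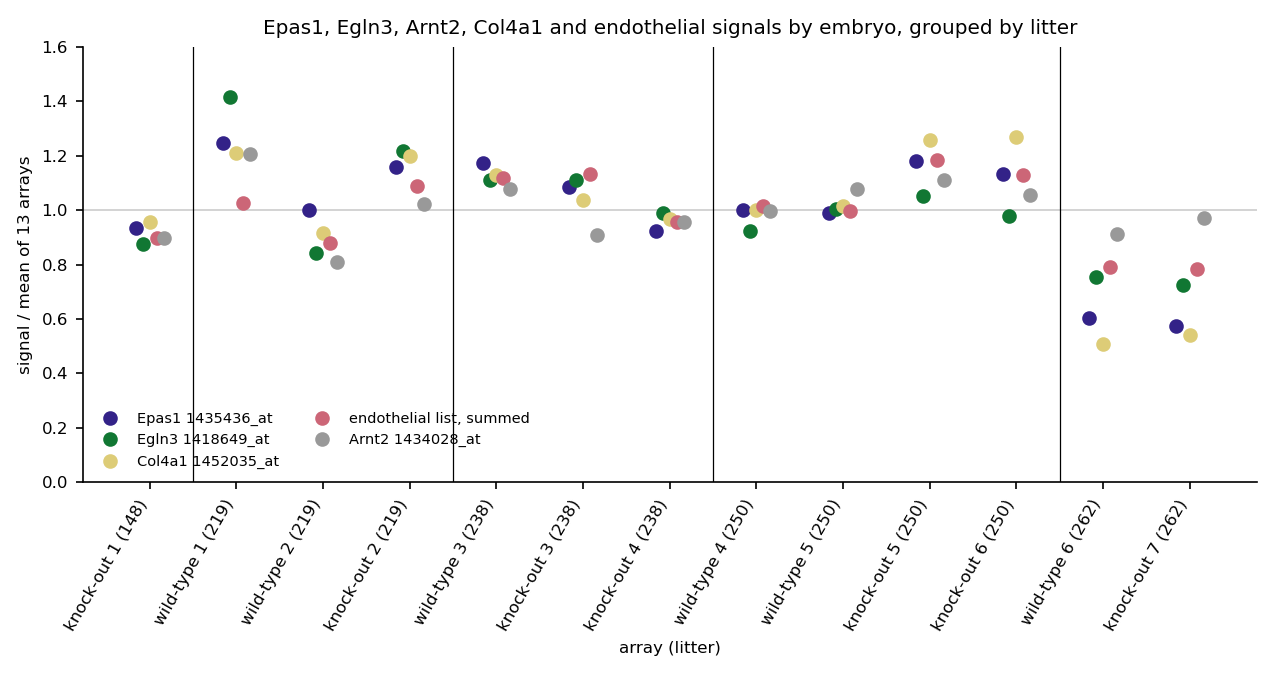
Signal of each embryo divided by its mean over the 13 arrays, for Epas1, Egln3, Arnt2 and Col4a1 and the sum of 11 endothelial markers, with arrays grouped by litter and colours for the 5 measures. In litter 262 Epas1 (836.1 and 798), Col4a1 (1760 and 1876) and the endothelial sum (5194 and 5149) are lowest in both embryos, while Arnt2 1434028_at (3924 and 4174) is within the range of the other litters.

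Epas1 and Egln3 were the 2 members whose deviations from the genotype means ran most closely together (r = 0.85 over 13 arrays), and the relation held at 0.78 over the 11 arrays outside litter 262. Arnt2 and Egln2 followed at 0.82, and at 0.85 without that litter. The correlation of Epas1 with Hif3a of 0.65 rested on litter 262, since it was -0.12 without it. Hif1a 1427418_a_at correlated with Epas1 at 0.01 and with Egln3 at -0.28. Within genes, the 2 Egln3 probe sets correlated at 0.58, and at 0.26 without litter 262, and the 2 of Epas1 at -0.06 over 13 arrays. All these are descriptions over arrays that share their RNA and scaling.

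Over the probe sets tested, the genes whose pattern was most like Epas1 were Col4a1, a basement membrane collagen, at r = 0.99, Gsn, the actin-severing protein gelsolin, at 0.97, and Bgn, the matrix proteoglycan biglycan, at 0.97. Without litter 262 these were 0.92, 0.87 and 0.82. Col4a1 read 1760 in wild-type 6 and 1876 in knock-out 7 and 3187 to 4418 in the other arrays. For Egln3 they were Apcdd1, a Wnt inhibitor, at 0.96, Col18a1, a basement membrane collagen, at 0.94, and Emp3, a membrane protein, at 0.94. For Hif1a they were Orc5, a subunit of the replication origin complex, Zbtb33, the repressor Kaiso, and 4931406C07Rik, each at 0.96. Arnt2 ran with Ints1, an Integrator subunit (0.95), Ess2 (0.94) and Dpagt1, an enzyme of N-glycosylation (0.94), and Egln1 with Klhl35 (0.93), Mpped2 (0.92) and Lmnb1, a nuclear lamin (0.92). For all of these, n is 13 arrays, and each member was read by its probe set with the highest mean.

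The Actb ratio also moved with the members. Wild-type 2 and knock-out 1, the 2 arrays with the highest ratio, were the 2 lowest arrays for 8 of 23 probe sets (34.8%, against 9.22% of all) and the 2 highest for 0 of 23 (against 4.78%). The 8 were Arnt2 1434028_at, 1420670_at and 1420669_at, Vhl 1421071_at, Arnt 1421721_a_at, Hif1a 1448183_a_at, Epas1 1449888_at and Egln1 1451110_at. In a limma fit with log2 of the ratio beside genotype, signal was lower at a higher ratio for 7 of 23 probe sets (30.4%, against 9.47% of all) and higher for 0 (against 1.73%). The slope was -3.67 ± 0.45 (SE) for Arnt2 1420670_at, -1.33 ± 0.24 for Vhl 1421071_at and -0.93 ± 0.16 for Egln1 1451110_at, in log2 signal per doubling of the ratio. Those limma adjusted p were 0.000153, 0.00337 and 0.0023. For Egln2 1416533_at the slope of -0.89 ± 0.20 rested on wild-type 2, since it was 0.04 without that array. Without wild-type 2 the count was 3 of 23 (against 3.97% of all), namely Arnt2 1420670_at, Hif1a 1448183_a_at and Vhl 1421071_at, and without both arrays it was 0 of 23 and 0 of all. The part of RNA integrity in the spread of these probe sets was not tested beyond these fits.

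Outside the 10 genes, the rest of the pathway was read from 4 lists with 1 probe set a gene, against all 12920 genes tested. In limma 0.0232% of all genes passed the adjusted threshold, 1.72% were higher and 0.255% lower at an unadjusted p under 0.05, and 0.0774% had groups that did not overlap. Knock-out means were higher for 65.5% of all genes, and for 31.3% with median centring, 39.1% with quantile normalisation and 46.8% with the common trimmed mean. On the same footing the 10 members had 0 higher and 0 lower at that p, with 5 higher and 5 lower means and a median log2 change of 0.00 beside 0.04 over all genes. With median centring the members' split was 1 higher and 9 lower, with a median of -0.10 beside -0.06 over all genes. It was 3 and 7 with quantile normalisation and 2 and 8 with the common trimmed mean. With litter as a block it was 8 and 2, where 64.6% of all genes were higher.

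Of the HIF target genes, 52 of 60 were tested, and with limma 0 passed the adjusted threshold while 5 were higher and 0 lower at an unadjusted p under 0.05 (9.62% and 0%). Knock-out means were higher for 44 and lower for 8 (84.6% higher), with a median log2 change of 0.10. That split depends on the scaling: with median centring it was 26 and 26 with a median of -0.00 beside -0.06 over all genes, with quantile normalisation 34 and 18, and with the common trimmed mean 33 and 19. The genes with the smallest p were Vegfa, the vascular growth factor, at 0.42 ± 0.12 (SE), Adm, the vasodilator peptide adrenomedullin, at 0.30 ± 0.12, Ldha, which makes lactate, at 0.20 ± 0.09, Pfkfb3, a glycolytic regulator, at 0.32 ± 0.15, Ankrd37 at 0.24 ± 0.11 and Slc16a3, a lactate exporter, at 0.58 ± 0.30, each with a limma adjusted p of 1.00. Vegfa alone among the 52 had groups that did not overlap, and with median centring or quantile normalisation 0 of 52 did. Ldha read 7118, 7927 and 8586 in wild-type and 8197, 9366 and 9722 in knock-out brains, which overlap. Beside them the members gave 0 of 10, and no difference between the 2 lists was tested.

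**Figure D5:**
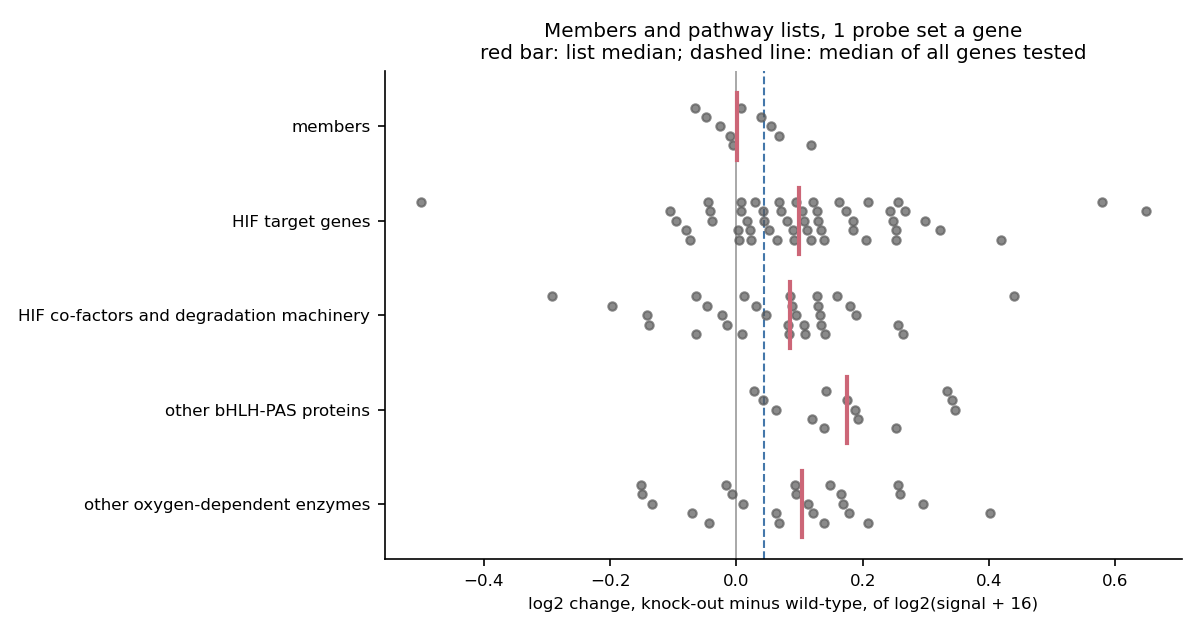
Log2 change, knock-out minus wild-type of log2(signal + 16), of each gene (1 probe set a gene) in the 10 members and the 4 pathway lists, with a red bar at each list's median and a dashed line at the median of all 12920 genes. The members centre on 0.00 and the HIF target genes on 0.10. With median centring the members centre on -0.10, the HIF target genes on -0.00 and all genes on -0.06.

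Of the co-factors and degradation machinery, such as the cullin complex of Vhl and the co-activators, 31 of 37 were tested; 0 passed the adjusted threshold with limma, and 0 were higher and 1 lower at an unadjusted p under 0.05. The lower one was Siah1a, a ubiquitin ligase known to act on the prolyl hydroxylases, which read 2097, 2585 and 3360 in wild-type and 1726, 2117 and 2610 in knock-out brains (log2 change -0.29 ± 0.13, SE; limma adjusted p = 1.00). That call was lost with litter as a block, where 1 gene of the list was higher and 0 lower, with the replicate block, with the Actb ratio as a covariate, without litter 148, 219 or 238, and without any 1 of wild-type 1 to 5 or knock-out 1, 3, 4 or 7. Knock-out means were higher for 22 and lower for 9 (median 0.09), and with median centring for 13 and 18. Tsc1, a brake on mTOR, and Wsb1, a ubiquitin ligase subunit, had the next smallest p, at 0.26 ± 0.13 and 0.44 ± 0.23. Cul2, the cullin of the Vhl complex, changed by 0.13 ± 0.20, and its partners Elob and Eloc by 0.08 ± 0.10 and -0.01 ± 0.12. The co-activators Ep300 and Crebbp differed by 0.09 ± 0.16 and -0.05 ± 0.12.

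The list of other bHLH-PAS proteins, relatives of the HIF subunits, also held Per1, Per2 and Per3, which have PAS domains without the bHLH region. Of its 15 genes 13 were tested, with 0 past the adjusted threshold in limma and 1 higher and 0 lower at an unadjusted p under 0.05. All 13 had a higher mean in knock-out brains (median 0.17), which became 10 with median centring, 7 with quantile normalisation, 11 with the common trimmed mean and 10 with litter as a block. The 1 gene at that p was Per2, so no bHLH-PAS protein proper was called in that fit. The count was 0 under those 3 scalings, without litter 250, and without wild-type 5 or knock-out 5. It was 3 of 13 with the Actb ratio as a covariate, against 392 of all 12920 genes. Without wild-type 2 and without knock-out 4 it was 2, against 288 and 306 of all genes. Per2, a clock repressor, was at 0.35 ± 0.14 (SE), Npas1, a repressor of some forebrain neurons, at 0.25 ± 0.14 and Ahr, the aryl hydrocarbon receptor that shares Arnt, at 0.17 ± 0.11. Other oxygen-dependent enzymes, mostly dioxygenases related to the Egln proteins but also Hmox2 and Ado from outside that family, were tested for 24 of 25. Of these 0 passed the adjusted threshold in limma, 1 was higher and 0 lower at an unadjusted p under 0.05, and 17 had a higher and 7 a lower mean (70.8% higher, near the share of all genes; median 0.10). The split was 12 and 12 with median centring (median 0.00), 13 and 11 with quantile normalisation and 10 and 14 without litter 219, and the count of 1 became 0 with median centring, with quantile normalisation and without litter 238. The named ones were Ogfod1, a ribosomal prolyl hydroxylase, at 0.40 ± 0.15 (SE), and the histone demethylases Kdm5b at 0.21 ± 0.12 and Kdm4a at 0.26 ± 0.21, each with a limma adjusted p of 1.00.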

How the data were processed

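Probe set intensities of 13 arrays were analysed as deposited. Per the labels' protocols, a lipid tissue kit yielded the total RNA, and 5 µg of it went into Affymetrix one-cycle labelling. The authors' deposited intensity values are linear; the sources used here give neither software nor scaling. Of 45101 probe sets, 64 controls were left out; 34945 carried 1 gene symbol, 932 several and 9160 none in the platform annotation. The members and lists were chosen with earlier results of these data known.

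Values were turned into log2(signal + 16), which understates the changes of weak probe sets, and kept above the 40th percentile (signal 56.9), leaving 27022. The genotypes were compared over all of these with limma 3.58.1 in R 4.3.3, two-sided, without litter, with Benjamini-Hochberg adjustment and a threshold of 0.05, after checks on simulated data. List counts used the probe set with the highest mean a gene. Single probe sets were also compared by exact permutation over 1716 assignments, which ignore litter; the smallest possible p is 0.00117. Plots used matplotlib 3.10.9 in Python 3.11.15. The number of arrays limits the precision.

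The text names every member probe set, Meg3 and Vegfa, the 3 list genes with the smallest p where none passed (6 for HIF targets), and the 3 genes most like each of 5 members. Cul2, Elob, Eloc, Ep300 and Crebbp were named outside this rule, after their values were seen. Whether replicate numbers pair embryos was checked by the correlation of deviations at each number, which was -0.43 to 0.20, so they were not used as pairs. Alternatives covered scaling, pseudocount, filter, litter, replicate number, Actb ratio and left-out arrays; the fits without wild-type 2 and knock-out 1, and the litter and ratio terms, were chosen after seeing the data.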

Additional observations from a re-analysis of the deposited data

Results flagged for a closer look

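In 46 groups of 6 or 7 arrays, 7 held an array far from the rest of its group, where about 1 in 20, or 2.3, would be so by chance. Epas1 1435436_at was low in both embryos of litter 262, at 836.1 in wild-type 6 (the other wild-type brains read 1373 to 1733) and at 797.544 in knock-out 7 (the others 1280 to 1640.0). Arnt2 1420670_at was low in the 2 arrays with a high Actb 3' to 5' ratio, at 25.1361 in wild-type 2 (others 243 to 595) and 47.6346 in knock-out 1 (others 336 to 626). In wild-type 2 Egln1 1451110_at read 376.489 (others 627 to 765) and Egln2 1416533_at read 992.093 (others 1851 to 2480). Vhl 1421071_at read 290.62 in knock-out 1 (others 596 to 784).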

How the results depend on the processing

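No member probe set passed the adjusted threshold, an unadjusted p of 0.05 or a separation of the groups under any of 31 alternatives (1 of them added after the data were seen); the smallest limma adjusted p was 0.765 and the smallest unadjusted p 0.0667. Signs were less stable: 22 of 23 probe sets took the other sign in some alternative, and Arnt 1419996_s_at alone did not, although no value moved beyond 1 SD of the arrays. The count of 5 HIF target genes higher at an unadjusted p under 0.05 became 1 with median centring, 2 with quantile normalisation and 1 with a common trimmed mean; without litter 219 it was 3, without litter 238 it was 2 and without litter 250 it was 2. Leaving out 1 array at a time gave 1 to 6, with 1 without knock-out 5, 2 without knock-out 6 and 3 without wild-type 1 or without knock-out 3. Shared replicate numbers did not pair the embryos; with the replicate block, which has no partner for knock-out 7, Epas1 1435436_at was at 0.12 and no member was called. Probe sets of weak signal, and the wide intervals of Hif1a 1448183_a_at and the 2 weaker Arnt2 probe sets, limit what could be detected.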
